A study of Mus musculus with 468 samples.

Results

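The genes of mitochondrial complex I were taken as the rows of the count table whose symbol starts with Nduf, leaving out symbols with -ps or a leading Gm. This rule gave 47 of the 23180 genes in the table. They comprise 7 nuclear-encoded core subunits, 29 supernumerary subunits, 8 assembly factors (Ndufaf1 to Ndufaf8), 2 genes that carry the name without being counted among the subunits (Ndufa4 and Ndufa4l2) and 1 processed pseudogene (Ndufb4c). All 47 passed the filter on low counts, which left 18380 genes.

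RNA was sequenced from adipose tissue of Diversity Outbred mice, a stock that mixes the genomes of several inbred founder strains. Every mouse ate a diet high in fat and sugar with 45 percent fat. The labels place all libraries in 1 group, with 1 library per mouse, and give no sex, age or generation, although the study used both sexes. Counts of Y chromosome genes were 0 in 48.5% of libraries and above 0 in the other 51.5%, and relations between transcripts are therefore given within each of these sets. The sizes of these sets equal the numbers of female and male mice that the paper gives for adipose tissue, respectively. The sets without and with Y counts are therefore read as females and males, although no label gives the sex of a single mouse. Genotypes were not analysed here.

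Complex I oxidises NADH, passes the electrons through a flavin and a chain of iron-sulfur clusters to ubiquinone, and pumps protons across the inner mitochondrial membrane. Its core subunits are shared with bacteria and are encoded partly in the nucleus and partly, as the mt-Nd genes, in mitochondrial DNA, whereas supernumerary subunits surround and stabilise this core. Assembly factors join or modify the subunits and are absent from the finished enzyme. In brown and beige adipocytes the respiratory chain builds the proton gradient that Ucp1, the uncoupling protein, turns into heat, and Adgre1 encodes F4/80, a surface marker of macrophages.

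Total expected counts were 35.3 M or more in every library. Adipocyte markers were present in every library, with a summed level of 12350 to 48230 CPM (counts scaled to 1000000 per library). Markers of other tissues varied widely, from 4.04 to 8649 CPM for the sum of 12 skeletal muscle genes and from 2.72 to 5950 CPM for 6 liver genes. The library of mouse DO283 had the lowest total, and those of DO494 and DO518 stood apart in Ndufb4 and its copy Ndufb4c. Counts of called members given below that come from all libraries together were the same without these 3 libraries. In bulk tissue, fewer cells of a type and less RNA per cell cannot be told apart.

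Of the members, 2 shared sequence with a copy elsewhere in the genome to an extent that changed their values. Ndufb4c, on chromosome 15, is a processed pseudogene whose 390 bases were all identical to the coding sequence of Ndufb4, a supernumerary subunit of the membrane arm on chromosome 16. The coding sequence of Ndufb4 is spread over 3 exons, the first of which holds 180 coding bases. The first 300 bases of both are printed to show that their letters are the same in the reference (GRCm38, GENCODE M21, minus strand for both loci). The founder sequences to which the authors aligned the reads were not compared. Capitals mark the start codon and the 10 bases across the first exon junction of Ndufb4, which the intronless copy holds without a break.
Ndufb4 (chr16:37647170-37654453): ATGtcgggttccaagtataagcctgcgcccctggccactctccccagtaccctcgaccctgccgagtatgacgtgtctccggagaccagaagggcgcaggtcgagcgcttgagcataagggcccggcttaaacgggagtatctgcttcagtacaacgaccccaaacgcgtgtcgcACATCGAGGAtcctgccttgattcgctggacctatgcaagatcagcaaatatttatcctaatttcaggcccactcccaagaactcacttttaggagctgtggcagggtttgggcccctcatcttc
Ndufb4c (chr15:73809507-73809896): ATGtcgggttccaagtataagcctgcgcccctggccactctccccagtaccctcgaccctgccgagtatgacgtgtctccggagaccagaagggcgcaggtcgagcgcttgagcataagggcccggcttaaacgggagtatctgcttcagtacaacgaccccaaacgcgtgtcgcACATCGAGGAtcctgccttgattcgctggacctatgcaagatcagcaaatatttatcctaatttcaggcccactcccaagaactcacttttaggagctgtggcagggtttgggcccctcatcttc

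Ndufb4 had a lowest level of 6.77, a median of 13.3 and a highest of 97.9 CPM, while its copy had 0.432, 43.3 and 103.6 CPM. The share of their summed level assigned to the copy fell into 3 separate ranges. It was 71.8 to 82.7% in 85.9% of libraries, 41.6 to 53.8% in 64 libraries, and 0.63 to 1.25% in the libraries of mice DO494 and DO518. No library lay between these ranges. Over all libraries the log2 levels of gene and copy were uncorrelated (r = -0.01). Ndufb4 alone followed the mean of the other subunits with r = 0.732, and the sum of both followed it with r = 0.955. The sum had a lowest value of 33.8, a median of 56.7 and a highest of 158.6 CPM.

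Ndufab1, the mitochondrial acyl carrier protein, has a copy of the same kind, Gm4459, further along chromosome 7. All bases of the copy but 1 were identical to the coding sequence of Ndufab1. The single difference is G137A, counted from 1 at the start codon and given as the base of Ndufab1 first. The 61 bases around it are printed for both with that base in capitals (GRCm38, minus strand).
Ndufab1 (chr7:122085403-122101886): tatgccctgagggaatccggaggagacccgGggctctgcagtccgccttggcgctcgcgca
Gm4459 (chr7:139659688-139660155): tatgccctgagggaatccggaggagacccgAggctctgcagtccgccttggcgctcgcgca

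The share assigned to Gm4459 was 27.2 to 46.4% in 92.3% of libraries and 0 to 11.1% in the other 36. Ndufab1 had a lowest level of 32.96, a median of 65.7 and a highest of 317.2 CPM. Its median was 90.4 CPM in the 36 libraries with little signal at the copy and 63.2 CPM in the others, whereas the median of the sum was 91.4 and 100.3 CPM, respectively. Summing gene and copy raised the correlation of Ndufab1 with the other subunits from 0.921 to 0.971. Levels of Ndufb4, Ndufb4c and Ndufab1 taken alone are therefore uncertain, and they remain among the 47 members in all counts below.

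**Figure D1:**
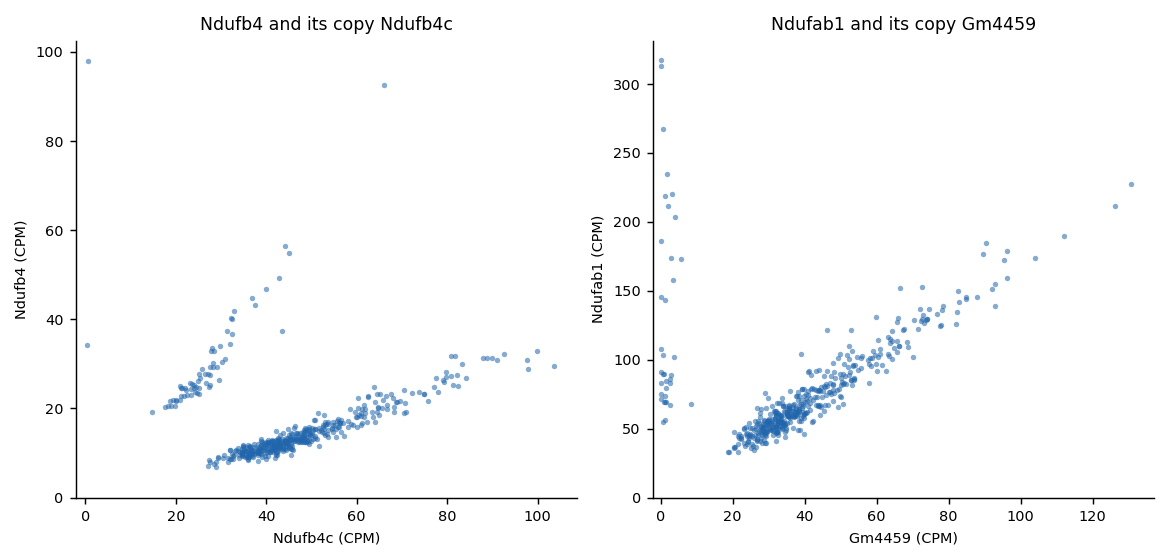
Each point is 1 library, with the level of the copy on the horizontal axis and that of the gene on the vertical axis, both in CPM. The left panel shows the separate bands of libraries for Ndufb4 and Ndufb4c, including DO494 and DO518 with almost no signal at the copy, and the right panel the 36 libraries with little signal at Gm4459.

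Core and supernumerary subunits were measured at similar levels. Per kilobase of the longest principal transcript, the mean level over libraries had a median of 71.8 CPM/kb over the 7 core subunits and of 69.9 CPM/kb over the 29 supernumerary subunits (6.20 to 235.7). High values among supernumerary subunits were those of Ndufb8 with 235.7 CPM/kb (160.2 ± 75.5 CPM before division by length, SD over all libraries) and Ndufb9 with 144.2 ± 65.8 CPM/kb, both of the membrane arm. The lowest belonged to Ndufb2 (6.20 ± 1.67 CPM/kb), Ndufb4 (17.2 ± 9.51 CPM/kb) and Ndufc1 (21.03 ± 9.40 CPM/kb). With the shortest principal transcript as the length, Ndufb2 rose to 59.6 and Ndufc1 to 83.4 CPM/kb, so that their place in this order depended on the annotated transcript.

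Assembly factors were measured at far lower levels, with a median of 7.89 CPM/kb and a range from 3.51 to 17.0. Ndufaf1, which belongs to the complex that builds the membrane arm, was the most abundant of them (lowest 12.4, median 22.6, highest 56.9 CPM). Ndufaf7, another assembly factor, had 9.40, 17.6 and 37.7 CPM, and Ndufaf5, which hydroxylates Ndufs7, had 3.39, 6.09 and 19.5 CPM. Ndufaf8, a partner of Ndufaf5, had 2.58, 6.26 and 12.5 CPM. Ndufaf3 and Ndufaf4 act together on the early peripheral arm. Ndufaf3 had 5.58, 10.9 and 41.3 CPM, and Ndufaf4 had 9.44, 19.9 and 81.3 CPM. Ndufaf2, a relative of the subunit Ndufa12 that acts late in assembly, had 2.74, 5.63 and 11.1 CPM. Ndufaf6, a factor of early assembly, was the lowest with 1.38, 3.501 and 10.5 CPM.

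Ndufa4, which was named as a complex I subunit and is now placed with cytochrome c oxidase, was as abundant per length as the highest subunits (220 ± 86.9 CPM/kb). Its relative Ndufa4l2, known as a target of the hypoxia factor HIF1, had 7.16 ± 1.82 CPM/kb.

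**Figure D2:**
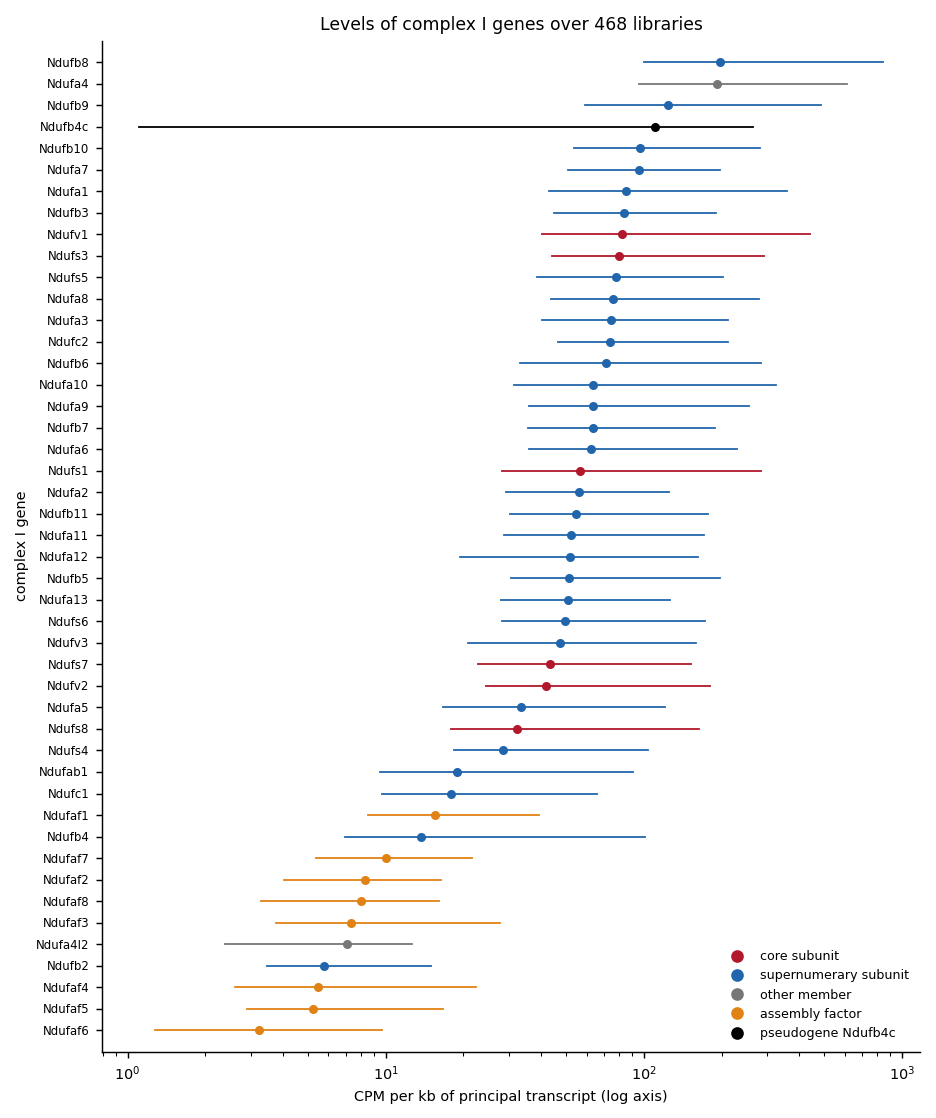
Levels of 46 of the 47 members in CPM per kilobase of the principal transcript on a log axis, where points are medians over all libraries and lines run from the lowest to the highest library. All 8 assembly factors lie among the 11 lowest medians, together with Ndufb4, Ndufb2 and Ndufa4l2.

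The members varied several fold between mice. The SD of log2 CPM over libraries had a median of 0.61 over the core subunits, 0.51 over the supernumerary subunits and 0.37 over the assembly factors, beside 0.46 over all 18380 genes. Ndufs1, the iron-sulfur subunit that receives electrons in the peripheral arm, ranged from 74.97 to 755 CPM. Ndufv1, which binds NADH and the flavin, had a lowest level of 66.77, a median of 137.3 and a highest of 729 CPM, and Ndufa10 had 63.2, 128.4 and 657.1 CPM. Mouse DO237 had the highest level in 31 of the 47 members. The lowest levels were spread over more mice, with DO032 the lowest in 9 members and DO296 and DO405 each in 6.

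The subunits were higher in the libraries without Y counts. The median of the libraries without Y counts was above that of the libraries with them for all 7 core subunits, by 1.58 to 2.00-fold, for all 29 supernumerary subunits, by 1.30 to 2.04-fold, and for all 8 assembly factors, by 1.19 to 1.51-fold. Ndufa10 had medians of 208.5 and 102.4 CPM, Ndufs1 of 234.8 and 117.6 CPM, and Ndufaf3 of 11.9 and 9.95 CPM. Ndufa4l2 was the only member that went the other way, with 6.13 and 6.95 CPM. The share of all genes with a higher median without Y counts was not computed. The levels of both sets overlapped in the plot of subunit means, and this contrast was not tested. By the match of set sizes described above, it is read as a contrast of females with males.

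Subunits varied together across mice. The log2 CPM of each member was set against the mean z-scored log2 CPM of the other core and supernumerary subunits, as a description without a test. Over all libraries, r was above 0.9 for 33 of the 36 core and supernumerary subunits, and for 1.27% of the 18333 genes that were no members, whose median r was -0.04. The median r was 0.971 for core subunits, 0.959 for supernumerary subunits and 0.850 for assembly factors. Marker sums of cell types and tissues differed widely between libraries, and the part of composition in r was not tested. The pooled r includes the offset between libraries without and with Y counts, and the part of this offset in r was not tested. Within the libraries without Y counts the median r was 0.969 for core subunits, 0.963 for supernumerary subunits and 0.827 for assembly factors. With Y counts it was 0.891, 0.827 and 0.529, respectively.

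The subunits were also grouped by structural module. The median r was 0.966 for the 8 subunits of the N module, where NADH is oxidised, and 0.973 for the 8 of the Q module, where ubiquinone is reduced. It was 0.949 for the 9 subunits of the proximal and 0.963 for the 10 of the distal membrane arm. The members with the highest r were Ndufa9 (0.986), Ndufb5 and Ndufs3 (both 0.985), and Ndufa4 also had 0.985. The lowest were Ndufa4l2 (-0.303), Ndufb4c (0.517), Ndufaf6 (0.688), Ndufaf3 (0.705) and Ndufb4 (0.732).

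Among assembly factors, Ndufaf1 (0.932) and Ndufaf7 (0.913) were closest to the subunits. Ndufaf4 had r = 0.897 without Y counts and 0.450 with them, and Ndufaf6 had 0.685 and 0.339. The supernumerary subunit Ndufb3 likewise had 0.881 and 0.577. Whether these pairs of values differ was not tested. The genes outside the set with the highest r belonged to the other respiratory complexes and ATP synthase, namely Cox4i1 (0.988), Uqcrb (0.988), Atp5j2 (0.988), Atp5h (0.987) and Uqcr10 (0.987). Cox4i1 kept 0.989 without and 0.963 with Y counts. The lowest value was that of Cpt1a, which governs the entry of fatty acids into mitochondria, with -0.852 over all libraries, -0.812 without and -0.555 with Y counts.

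**Figure D3:**
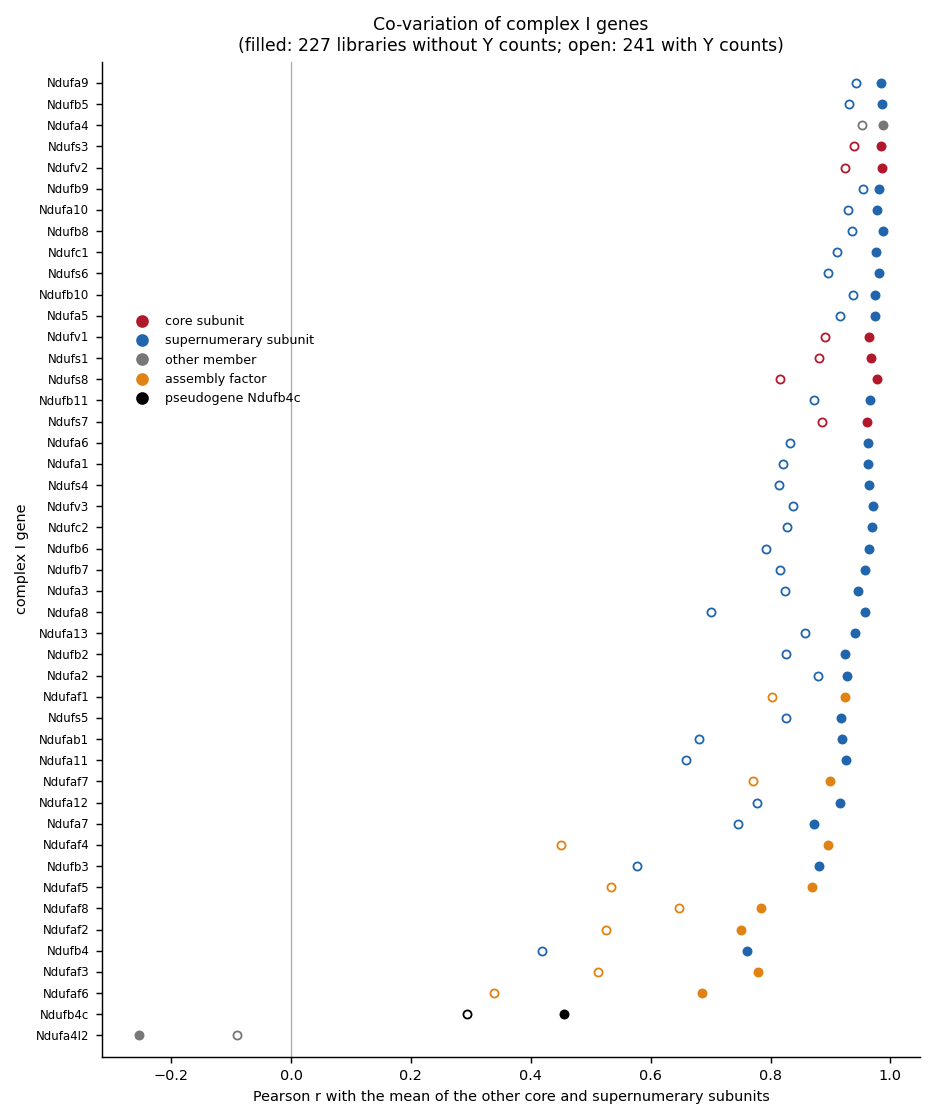
Pearson r of 46 of the 47 members with the mean of the other core and supernumerary subunits, drawn for the libraries without Y counts (filled) and those with them (open). Values are higher without Y counts for every member drawn but Ndufa4l2, and Ndufa4l2 lies furthest left in both sets of libraries.

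Single libraries departed from the common course, taken as more than 1 log2 unit off the level that the other subunits gave, in few members. Ndufb4 did so in 16 libraries, Ndufa4l2 in 4 and Ndufb4c in 3. Ndufb4 and Ndufb4c are the gene and copy described above. Ndufaf3 was 2.11 log2 units above its course in mouse DO180, at 41.3 CPM, and 1.13 above it in DO216, at 20.0 CPM, beside a median of 10.9 CPM. Ndufa1, the X-linked subunit of the membrane arm, was 1.60 log2 units above in DO283 at 108.8 CPM. In the same library Ndufb11, also X-linked, was 0.81 above and Ndufs1 was 0.80 below (-0.80). Each of these departures rests on 1 library.

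The mt-Nd genes supply the core subunits of the membrane arm from mitochondrial DNA. Their levels are not compared with those of nuclear members, because reads were selected by their polyA tails. mt-Nd1 had a lowest level of 1563, a median of 3597 and a highest of 18230 CPM, and mt-Nd4 had 2664, 6298 and 31820 CPM. Against the mean of the nuclear subunits, r within the libraries without Y counts was 0.926 for mt-Nd1, 0.906 for mt-Nd4, 0.889 for mt-Nd3, 0.875 for mt-Nd5, 0.866 for mt-Nd2 and 0.865 for mt-Nd6. With Y counts these values ranged from 0.518 for mt-Nd2 to 0.689 for mt-Nd4.

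mt-Nd4l, whose reading frame overlaps the start of mt-Nd4, had r = 0.355 without and 0.143 with Y counts. Its levels fell into separate sets, with 4.93 to 52.3 CPM in 98 libraries and 118.6 to 2609 CPM in 370. Both sets held libraries without and with Y counts (46 and 52 in the lower set), and their median mt-Nd4 was 6536 and 6199 CPM. Within the lower set, mt-Nd4l followed the nuclear subunits with r = 0.5998 without and 0.448 with Y counts, and within the upper set with 0.914 and 0.666.

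Every member was associated with the mean log2 CPM of the 7 mt-Nd genes. In edgeR's quasi-likelihood test with Benjamini-Hochberg adjustment over all genes, 46 of 47 members were higher with it, where 36.7% of 18365 genes tested were called higher, and Ndufa4l2 was lower, where 44.5% were called lower. Slopes are log2 units per SD of the predictor over mice. The largest were those of Ndufa10 (0.64 ± 0.01, SE, adjusted p = 1.79e-173), Ndufv1 (0.62 ± 0.01, adjusted p = 4.81e-167) and Ndufs1 (0.62 ± 0.01, adjusted p = 3.35e-173). The median slope was 0.53 over core subunits, 0.41 over supernumerary subunits and 0.30 over assembly factors, beside -0.02 over all genes and a 95th percentile of 0.34.

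Within the libraries without Y counts, tested with limma, 46 members were higher and Ndufa4l2 lower, beside 32.2% and 39.5% of genes. Within those with Y counts, 46 were higher, beside 23.2% of genes, and none lower, beside 25.7%, and Ndufa4l2 was not called (slope 0.02, adjusted p = 0.465). The median r of members with the mt-Nd mean was 0.836 without and 0.447 with Y counts. It was 0.882 and 0.543 when mt-Nd4l was left out of the mean. For Ndufs1, r with all 7 genes was 0.895 (rho 0.896) and 0.650 (rho 0.637), respectively. Each had a two-sided permutation p of 1e-05, the smallest that 100000 resamples can give. Such relations were computed for each of 47 members with 4 predictors in both sets of libraries. Without the 2 libraries farthest from the median of the predictor, r of Ndufs1 was 0.892 and 0.635.

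Ucp1 spanned a far wider range than any member. It had a lowest level of 0.216, a median of 448.2 and a highest of 4514 CPM without Y counts, and 0.0573, 3.02 and 85.8 CPM with them. Of the members, 46 were higher with Ucp1, beside 35.8% of 18379 genes, and Ndufa4l2 was lower, beside 43.5%. Ndufa10 rose by 0.61 ± 0.02 log2 units per SD of Ucp1 (SE, adjusted p = 2.06e-139), Ndufs1 by 0.59 ± 0.02 (adjusted p = 4.81e-142) and Ndufv1 by 0.58 ± 0.02 (adjusted p = 2.48e-125). These slopes correspond to 1.52, 1.51 and 1.497-fold per SD. The median was 0.53 over core subunits, 0.39 over supernumerary subunits and 0.27 over assembly factors, beside -0.01 over all genes and a 95th percentile of 0.33.

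Among assembly factors the largest slope on Ucp1 was that of Ndufaf4 (0.44), followed by Ndufaf5 (0.35) and Ndufaf1 (0.32), and the smallest was that of Ndufaf3 (0.15). All 8 were called higher.

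The relation to Ucp1 was measured at different ranges of Ucp1 in both sets of libraries. Without Y counts, 46 members were higher with Ucp1 and Ndufa4l2 lower in limma, beside 30.9% and 38.3% of genes. With Y counts, 20 were higher, beside 7.74% of genes, 0 were lower, beside 8.36%, and 27 were not called. An unadjusted p under 0.05 was reached by 32 members, beside 5696 of 18379 genes. The called members comprised 6 of 7 core subunits, 11 of 29 supernumerary subunits and 3 of 8 assembly factors. The slope of Ndufs1 was 0.54 ± 0.02 without Y counts (SE, limma, adjusted p = 3.34e-67) and 0.10 ± 0.02 with them (adjusted p = 2.02e-04), each per SD of Ucp1 within its set. Ndufv1 had a slope of 0.57 without Y counts and 0.05 with them (limma, adjusted p = 0.0898 in the latter).

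For Ndufs1, r with Ucp1 was 0.865 (rho 0.922) without Y counts, with a two-sided permutation p of 1e-05 for both, the smallest possible. With Y counts r was 0.295 (permutation p = 1e-05) and rho 0.262 (permutation p = 3.0e-05). Leaving out the 2 libraries farthest from the median of Ucp1 gave r = 0.866 and 0.290. The median r over members was 0.781 and 0.152. The difference between the sets was not tested.

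**Figure D4:**
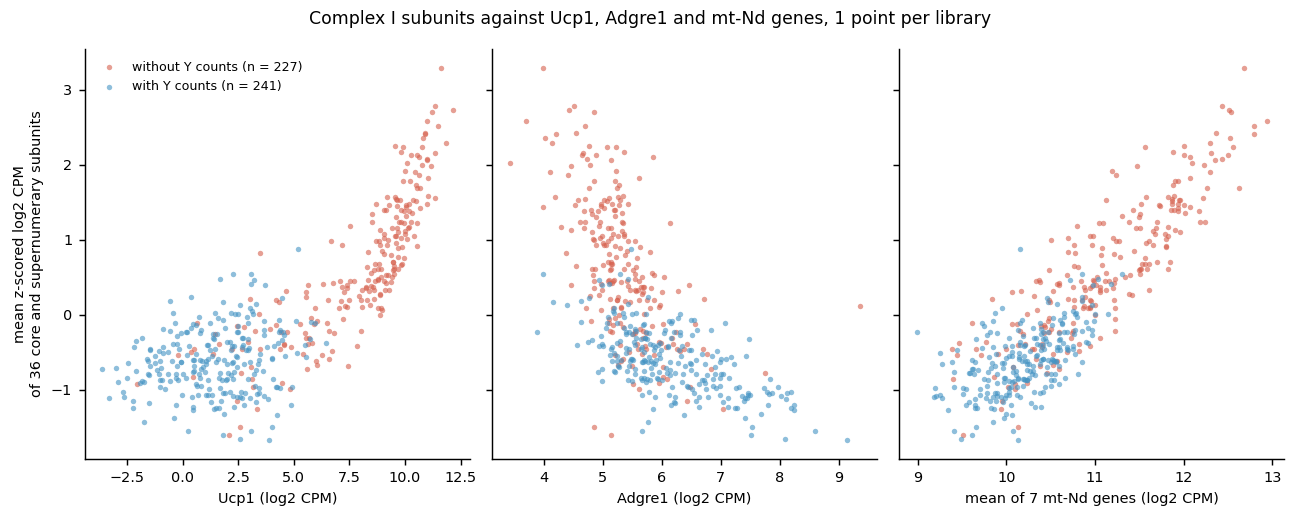
The mean z-scored log2 CPM of the 36 core and supernumerary subunits against the log2 CPM of Ucp1, of Adgre1 and the mean of 7 mt-Nd genes, with 1 point per library. Libraries without Y counts reach higher Ucp1, mt-Nd and subunit levels, and both sets fall as Adgre1 rises.

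Adgre1 had a lowest level of 10.7, a median of 38.1 and a highest of 656.5 CPM without Y counts, and 14.8, 62.4 and 565.7 CPM with them. Of the members, 46 were lower with Adgre1, beside 43.4% of genes, and Ndufa4l2 was higher, beside 34.7%. Ndufv1 fell by 0.50 ± 0.02 log2 units per SD of Adgre1 (SE, edgeR adjusted p = 6.88e-70), Ndufa10 fell by 0.50 ± 0.02 (adjusted p = 1.05e-67) and Ndufs1 fell by 0.47 ± 0.02 (adjusted p = 3.87e-64). The median slope was -0.41 over core subunits, -0.34 over supernumerary subunits and -0.24 over assembly factors, beside -0.02 over all genes and a 5th percentile of -0.36.

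Both sets of libraries gave this direction. Without Y counts, 46 members were lower and Ndufa4l2 higher in limma, beside 31.6% and 32.5% of genes. With Y counts, 44 were lower and Ndufa4l2 higher, beside 40.6% and 31.2%, and Ndufb3 (slope -0.01, adjusted p = 0.558) and Ndufaf4 (slope -0.03, adjusted p = 0.167) were not called. The median r of members with Adgre1 was -0.584 without and -0.566 with Y counts. Ndufs1 had r = -0.609 (rho -0.641) and -0.572 (rho -0.576), each with a two-sided permutation p of 1e-05. The corresponding r was -0.655 and -0.560 without the 2 libraries farthest from the median of Adgre1. The other macrophage markers moved with Adgre1: all 13 of them were higher with it, and all 14 macrophage genes were lower with Ucp1. Their summed level ranged from 445.6 to 7535 CPM, and the part of macrophage content in these slopes was not tested. Most adipocyte markers moved the other way: of 10 genes, 8 were lower with Adgre1 (median slope of the list -0.23). With Ucp1, 8 were higher and 2 lower (Cidec and Lpl). The mean of the list had r = 0.593 with the subunits over all libraries. Single genes ranged from -0.267 for Cidec to 0.809 for Slc2a4 without Y counts, where Adipoq (-0.197) and Lpl (-0.231) were negative as well. With Y counts they ranged from 0.3995 for Cidec to 0.752 for Fabp4. The part of adipocyte content in these slopes was not tested either.

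Adgre1 and Ucp1 were then placed in 1 model. Given Ucp1, 46 members were lower with Adgre1 and Ndufa4l2 higher, beside 45.3% and 30.6% of genes, with steep slopes for Ndufv1 (-0.28) and Ndufa10 (-0.27). Given Adgre1, 46 were higher with Ucp1 and Ndufa4l2 lower, beside 31.2% and 41.4%, and the steepest were Ndufa10 (0.49), Ndufs1 (0.49) and Ndufv1 (0.46). The median slope on Adgre1 was -0.34 alone and -0.18 with Ucp1 in the model, and that on Ucp1 was 0.39 alone and 0.30 with Adgre1 in the model.

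The same model was fitted within each set of libraries with limma. Without Y counts and given Ucp1, 45 members were lower with Adgre1, beside 20.9% of genes, and 0 were higher, beside 17.1%, with a median slope of -0.11. Ndufa4l2 (slope 0.02, adjusted p = 0.617) and Ndufb4c (slope -0.06, adjusted p = 0.294) were not called. Given Adgre1, 46 members were higher with Ucp1 in these libraries and Ndufa4l2 lower, beside 24% and 31.1% of genes, with a median slope of 0.31. With Y counts and given Ucp1, 45 members were lower with Adgre1 and Ndufa4l2 higher, beside 40.1% and 31.3% of genes, with a median slope of -0.16, and Ndufb3 was not called (slope -0.02, adjusted p = 0.197). Given Adgre1, 40 members were higher with Ucp1, beside 6.48% of genes, and 0 were lower, beside 5.75%, with a median slope of 0.07. The called members comprised all 7 core subunits, 27 of 29 supernumerary subunits and 5 of 8 assembly factors, and Ndufa7, Ndufb4, Ndufb4c, Ndufaf3, Ndufaf6, Ndufaf8 and Ndufa4l2 were not called. The predictors were scaled to their SD within each set, and the difference between the sets was not tested.

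**Figure D5:**
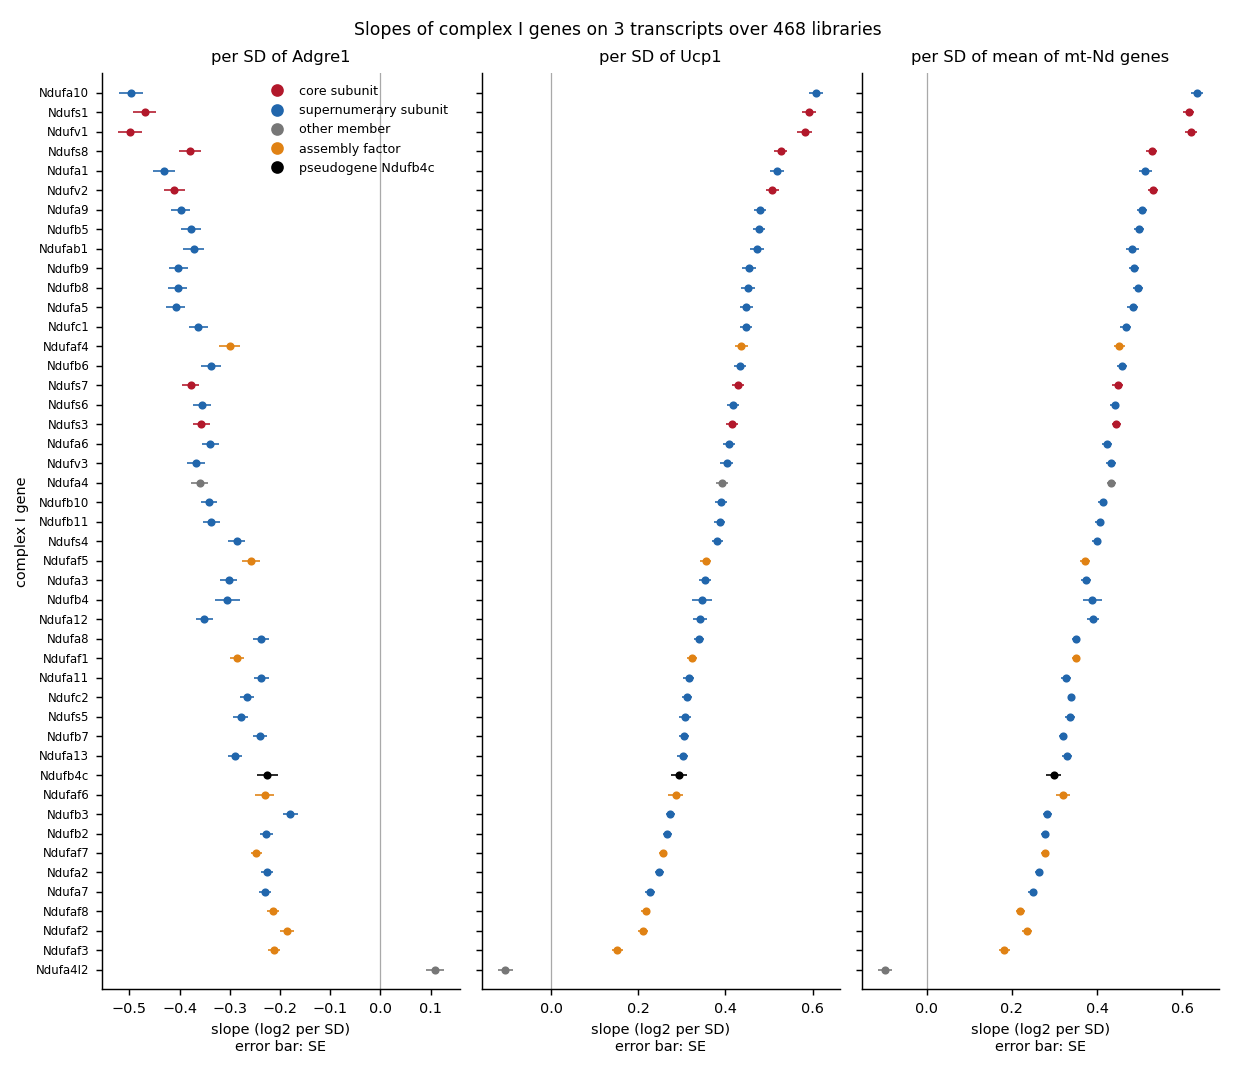
Slopes of 46 of the 47 members in log2 units per SD of Adgre1, Ucp1 or the mean of the mt-Nd genes over all libraries, with bars of 1 SE from edgeR. Ndufa4l2 is the only member drawn on the other side of 0 in the 3 panels.

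Over all libraries, Ndufa4l2 went against the other members in each of the fits of Adgre1, Ucp1 and the mt-Nd mean, alone or together. Within the libraries with Y counts it was not called for Ucp1, the mt-Nd mean or Ucp1 given Adgre1, and without Y counts it was not called for Adgre1 given Ucp1. It had a lowest level of 2.23, a median of 6.60 and a highest of 11.8 CPM, with medians of 6.13 CPM without and 6.95 CPM with Y counts. It was higher with Adgre1 (0.11 ± 0.02 log2 units per SD, SE, edgeR adjusted p = 9.32e-10) and lower with Ucp1 (-0.10 ± 0.02, edgeR adjusted p = 2.00e-09). Within the libraries with Y counts its slope on Ucp1 was 0.01 (limma, adjusted p = 0.696), while without Y counts it was -0.11 (adjusted p = 1.17e-04). The transcripts whose log2 CPM was most like that of Ndufa4l2 over all libraries were Tmem88 (r = 0.679), Ctnnbip1 (0.655), Notch3 (0.642), the basement membrane collagen Col4a1 (0.628) and the leptin gene Lep (0.625). Tmem88 had 0.701 without and 0.614 with Y counts, and Lep 0.633 and 0.546.

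Genes of the other respiratory complexes moved as the complex I subunits did. With Adgre1, all 4 genes of complex II, 9 of complex III and 10 of complex IV were lower, as were 14 of 15 of ATP synthase, and the same genes were higher with Ucp1. The exception was Atp5g1, one of several genes for the c subunit of ATP synthase, which was higher with Adgre1 (0.04) and lower with Ucp1 (-0.09), with r = -0.274 to the complex I subunits without and -0.180 with Y counts. Of 10 complex I assembly factors without an Nduf name, all 10 were lower with Adgre1 and higher with Ucp1, and their r with the subunits without Y counts ranged from 0.240 for Tmem126b to 0.957 for Ecsit.

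Among 8 regulators of mitochondrial genes, 7 were lower with Adgre1 and higher with Ucp1. The r with the complex I subunits was 0.866 without and 0.652 with Y counts for the fatty acid receptor Ppara, 0.918 and 0.429 for the coactivator Ppargc1b, and 0.827 and 0.571 for its relative Ppargc1a. For Esrra it was 0.913 and 0.211, for Tfam 0.862 and 0.321, for Gabpa 0.720 and 0.094, and for Pparg 0.647 and 0.311. Nrf1, a transcription factor of respiratory chain genes, was not called in either fit and had r = -0.08 and 0.09, with a lowest level of 10.6, a median of 14.2 and a highest of 20.96 CPM. Of the brown adipocyte markers, 8 of 8 were higher with Ucp1 over all libraries, and the summed level of this list ranged from 42.95 to 7707 CPM. Their r with the complex I subunits ranged from 0.703 for Dio2 to 0.909 for Cox8b without Y counts and from -0.183 for Otop1 to 0.607 for Cox8b with them, where Dio2 had -0.07, Elovl3 0.07 and Cpt1b 0.228. Of 10 skeletal muscle markers past the filter, 9 were higher with Ucp1 as well. Without the tenth of libraries highest in muscle markers, 46 members were higher with Ucp1 and 46 lower with Adgre1. The shares of genes over all libraries were 35.8% and 43.4%, respectively. The part of muscle transcripts in these relations was not tested.

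Promoters were read for the 40 members found in a RefSeq table of 250 bases before to 50 after each gene start (GRCm38.p6), which gave 42 promoters. The motif of NRF1, GCGCANGCG, searched on both strands, was present in 11 of 42 promoters (26.2%) and in 6.25% of all 32851. That of YY1, AAGATGGCG, was present in 6 (14.3%) beside 1.4%, and in all 6 it began 11 to 36 bases after the start, in Ndufa9, Ndufaf8, Ndufc1, Ndufs4, Ndufs6 and Ndufs7. The SP1 motif GGGCGG was found in 22 (52.4%) beside 35.7%, the GABPA motif CCGGAAG in 6 (14.3%) beside 8.86%, the NFY motif CCAAT in 14 (33.3%) beside 37.4%, and the ERR motif TCAAGGTCA in 0 beside 0.423%. Of the 250 bases upstream of the start, those before the first annotated exon are printed for Ndufaf4, Ndufs5, Ndufb4 and Ndufa11. Capitals show the NRF1 motif. For Ndufb4 the motif also began at -79 and -22 from the start, in bases that are not printed. Binding was not measured.
Ndufaf4 (chr4:24897833-24898082, plus strand): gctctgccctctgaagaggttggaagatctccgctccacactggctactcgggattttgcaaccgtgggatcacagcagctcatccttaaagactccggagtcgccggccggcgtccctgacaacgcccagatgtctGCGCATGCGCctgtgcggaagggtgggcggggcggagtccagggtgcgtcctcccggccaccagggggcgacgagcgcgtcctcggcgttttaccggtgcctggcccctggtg
Ndufs5 (chr4:123718203-123718436, minus strand): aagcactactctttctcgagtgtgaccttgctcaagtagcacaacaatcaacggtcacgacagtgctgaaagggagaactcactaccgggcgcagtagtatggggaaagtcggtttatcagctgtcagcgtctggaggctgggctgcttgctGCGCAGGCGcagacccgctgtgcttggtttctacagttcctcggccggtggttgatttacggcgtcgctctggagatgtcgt
Ndufb4 (chr16:37654454-37654618, minus strand): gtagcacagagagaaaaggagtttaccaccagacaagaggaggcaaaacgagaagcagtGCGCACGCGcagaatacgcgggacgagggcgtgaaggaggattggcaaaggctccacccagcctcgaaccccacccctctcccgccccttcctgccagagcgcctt
Ndufa11 (chr17:56717512-56717761, plus strand): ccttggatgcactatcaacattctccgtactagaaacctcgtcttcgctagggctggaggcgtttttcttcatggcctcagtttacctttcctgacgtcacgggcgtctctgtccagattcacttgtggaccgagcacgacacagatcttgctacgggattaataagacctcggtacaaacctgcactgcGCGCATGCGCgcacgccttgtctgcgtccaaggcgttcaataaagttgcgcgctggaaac

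After the mean of the subunits was taken out, what remained of each member's variation was set against the same quantity of every other gene. For 7 of the 47 members, the gene with the largest absolute r among 18379 lay within 2 Mb of the member, a window that held a median of 45 genes (0.245% of them). These were Nfx1 for Ndufb6 (r = -0.610), BC051226 for Ndufa7 (0.543), Meaf6 for Ndufs5 (-0.507), Kdm7a for Ndufb2 (-0.467), Amdhd1 for Ndufa12 (0.446), Mrpl34 for Ndufa13 (-0.437) and 4930412C18Rik for Ndufaf6 (-0.392). For Ndufb4, the neighbour Gm36028 (0.652) came next after its copy Ndufb4c (-0.685).

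The labels give a mouse number and a library number as the only order. In a model with both over all libraries, Ndufa4l2 was the only member called for mouse number. Its slope was 0.03 log2 units per 100 numbers (edgeR adjusted p = 0.0407). Of all genes, 12.9% were higher and 13.4% lower. An unadjusted edgeR p under 0.05 was reached by 3 of 47 members, beside 7036 of 18380 genes. Libraries without and with Y counts came mostly in alternating runs of mouse numbers, such as DO021 to DO070 without and DO071 to DO120 with. The part of these runs in differences between the sets was not tested. Calls for mouse number changed within the sets of libraries (limma). Without Y counts, 20 members were higher with mouse number, beside 3.90% of genes, and 0 were lower, beside 4.24%. The median slope was 0.06 log2 units per 100 numbers, and 43 members had an unadjusted p under 0.05, beside 4476 of 18380 genes. With Y counts 0 were called by limma in either direction, beside 1.78% of genes higher and 3.25% lower, with a median slope of -0.01. Here 6 members had an unadjusted p under 0.05, beside 3498 of 18380 genes. No member was called for library number by edgeR's quasi-likelihood test, beside 0.169% of genes higher and 0.152% lower. In that test 20 members had an unadjusted p under 0.05, beside 1808 of 18380 genes. DESeq2 and limma also called 0. Slopes on library number ranged from -0.06 to 0.02. Within 5 blocks of library numbers and 5 of mouse numbers, each pooled over libraries without and with Y counts, r of the member median ranged from -0.717 to -0.562 with Adgre1, from 0.752 to 0.856 with Ucp1 and from 0.822 to 0.890 with the mt-Nd mean.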

How the data were processed

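RNA of adipose tissue was sequenced from 468 mice after polyA selection (KAPA mRNA HyperPrep), and 227 libraries had no Y chromosome counts and 241 had some. The authors estimated expression with EMASE, run by GBRS, after aligning the ends of each pair separately to the pooled transcripts of all founders. Versions and strand settings: not given in the sources used here. Totals were 35.3 M to 138 M per library. The counts the authors deposited are expected counts per gene (GRCm38 in the submitters' processing notes), of which 66.8% were whole within 1e-06. A read pair can add a count from each end, and shared reads are divided between copies. The authors also deposited log2-scale values, made with the variance stabilizing transformation of DESeq2 after a filter on low counts and, in the methods, a batch correction. These values served only as an alternative.

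Genes with at least 10 counts in at least 50% of libraries were kept (18380 of 23180). CPM used unrounded counts and TMM factors of edgeR 4.0.16 (0.578 to 1.36), scaled to 1000000, and log2 CPM added a prior count of 2. Rounded expected counts were fitted across all genes with edgeR's quasi-likelihood test, and calls are at a Benjamini-Hochberg adjusted p under 0.05. Subsets were fitted with limma 3.58.1, and DESeq2 1.42.0 served as an alternative, in R 4.3.3. The predictor itself, or for the mt-Nd mean the genes of mitochondrial DNA, was left out of the genes tested. Levels per length used the principal transcripts of GENCODE M21, in which all 47 members had the position given in the files. Other alternatives were DESeq2 size factors, no filter, a prior count of 0.5, added covariates and sets of libraries left out. The code was tested on simulated data.

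The members and gene lists were chosen with earlier results of these data known. Named with values were the Ndufaf genes, the 3 subunits highest and lowest per length, the 5 lowest and 3 highest in co-variation, the 3 steepest members in each direction of each fit, members not called or against the majority, the 3 with most outlying libraries, and the mt-Nd genes, Ucp1 and Adgre1. 1 member is not reported here singly and is left out of the plots, but counts in all totals. In the fits of mouse and library number, and of Ucp1 with Y counts, most members were not called and are given by counts or ranges. Splits in Ndufab1, its copy and mt-Nd4l were noticed in the data. With 1 library per mouse, p-values set an effect against the spread between mice, which were treated as independent. The edgeR fits over all libraries held no term for sex, generation or kinship, and so include the offset between libraries without and with Y counts. Depth limits the lowest members most.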

Additional observations from a re-analysis of the deposited data

How the results depend on the processing

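Of the alternatives run for the numbers of called members, the co-variation and the levels, 5 moved a count by more than 1.5 times, and the others stayed within 1.5 times the count or 1 SD of the value. Among the 5 were 20 members called higher for Ucp1 in the libraries with Y counts, beside 7.74% of genes. The rest were for mouse number, with 1 member over all libraries, beside 12.9% of genes higher and 13.4% lower. They were 20 members without Y counts (all higher, beside 3.90% of genes) and 0 with Y counts, beside 1.78% higher and 3.25% lower. With Xist and Y genes in the model 5 were called (all higher). Without the tenth of libraries highest in muscle markers 6 were called (5 lower and 1 higher). The shares of genes called in these last fits are not given here. Directions thus differed between the fits of mouse number as well. The cause of these shifts was not tested, and the number of libraries differed between the fits as well. Among alternatives for single members, 6 lost their call, 7 moved, 3 turned their sign and all others kept their call. All 3 were slopes of Ndufa4l2 in the libraries with Y counts: 0.0143 on Ucp1 (adjusted p = 0.696), 0.0203 on the mt-Nd mean (adjusted p = 0.465) and 0.00172 on Ucp1 given Adgre1 (limma, adjusted p = 0.973). Without mice DO283, DO494 and DO518, left out after seeing the data, Ndufb4c followed the other subunits with r = 0.738 in place of 0.517. With the length of all exons, the median of members was 33.3 CPM/kb in place of 59.6 CPM/kb. No paired analysis was possible because every mouse gave 1 library in 1 group.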
